A study of Mus musculus with 9 samples.

Results

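Immunoglobulin kappa variable (Igkv) segments were examined in splenic B cells of wildtype, Eµ-MTCP1 and Eµ-TCL1 mice. All 100 genes whose symbol begins with Igkv were taken, of 22174 genes in the authors' table, by name and not by level. These members belong to 20 families and are carried by 135 transcripts. In each leukemic library the single most abundant segment was then set aside, and the reads left on the other 99 segments are called the residual repertoire.

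RNA-sequencing covered 9 mice with 1 library each, all labelled as strain C57/BL6NTac, and 3 mice formed each group. Eµ-MTCP1 mice (Z2551, Z2606 and Z2641) came from the single founder Z36 and expressed human MTCP1 from a VH promoter and the IgH Eµ enhancer, which act in B cells. Eµ-TCL1 mice (B4376, B4437 and C1594) carried human TCL1, and wildtype littermates without the MTCP1 transgene (Z2754, Z2755 and Z2785) served as controls. The leukemic mice were age-matched and were taken at significant disease burden, with no ages given in the sources used here, and B cells were isolated from spleen with a pan B cell kit.

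A kappa light chain is built in each developing B cell by joining 1 V segment to 1 J segment upstream of the constant exon Igkc, and all descendants of that cell transcribe the same joined gene. A normal B-cell population therefore uses many V segments, whereas a clone uses the segment of its founder cell. V segments lie in either orientation along the locus, so some join by deletion and others by inversion of the DNA between V and J.

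All members lay on chromosome 6 (genome build GRCm38, chr6:67555497-70704177), with the J segments and Igkc on the far right, from Igkj1 at position 70722562. Of the 100 members, 62 were on the minus strand and 38 on the plus strand. Its midpoint, at position 69129837, left 58 members on the side of the J segments (proximal) and 42 on the other (distal).

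The sequences below are shown because the clonal signal and the residual signal rest on them. They are the last 150 coding bases of each germline segment, from GENCODE M21 on GRCm38, all on the minus strand. Capitals mark the bases after the last cysteine codon, where the V segment enters the third complementarity-determining region that contacts antigen. The first 4 were the leading segments of the leukemic libraries.

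Igkv4-91, chr6:68768555-68768704: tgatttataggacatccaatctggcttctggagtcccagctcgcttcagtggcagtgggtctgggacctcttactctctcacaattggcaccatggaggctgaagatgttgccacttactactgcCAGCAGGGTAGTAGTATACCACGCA
Igkv12-89, chr6:68834846-68834995: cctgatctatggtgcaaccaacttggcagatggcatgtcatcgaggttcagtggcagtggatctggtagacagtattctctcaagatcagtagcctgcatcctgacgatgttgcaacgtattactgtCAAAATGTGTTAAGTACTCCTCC
Igkv10-94, chr6:68704508-68704657: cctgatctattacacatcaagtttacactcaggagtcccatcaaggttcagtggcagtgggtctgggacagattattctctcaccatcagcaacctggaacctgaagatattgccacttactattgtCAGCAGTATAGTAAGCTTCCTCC
Igkv8-30, chr6:70117061-70117210: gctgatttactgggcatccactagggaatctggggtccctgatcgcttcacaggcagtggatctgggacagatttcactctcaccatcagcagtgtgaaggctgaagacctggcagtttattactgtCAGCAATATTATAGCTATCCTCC

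The next 3 led the residual repertoire of 1 library each. The last 2 are a near-identical pair in which only Igkv6-29 stood high beside Igkv8-30.

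Igkv19-93, chr6:68736297-68736446: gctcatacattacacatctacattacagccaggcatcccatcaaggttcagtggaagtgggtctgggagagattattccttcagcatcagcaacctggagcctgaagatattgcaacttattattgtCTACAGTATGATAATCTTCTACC
Igkv5-43, chr6:69823355-69823504: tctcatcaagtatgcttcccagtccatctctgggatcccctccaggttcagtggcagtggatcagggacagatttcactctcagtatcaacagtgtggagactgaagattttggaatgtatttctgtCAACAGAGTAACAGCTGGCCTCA
Igkv8-19, chr6:70340876-70341025: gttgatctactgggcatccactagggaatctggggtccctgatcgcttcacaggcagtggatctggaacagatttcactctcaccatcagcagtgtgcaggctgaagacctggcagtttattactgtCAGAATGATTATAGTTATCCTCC
Igkv6-29, chr6:70138462-70138611: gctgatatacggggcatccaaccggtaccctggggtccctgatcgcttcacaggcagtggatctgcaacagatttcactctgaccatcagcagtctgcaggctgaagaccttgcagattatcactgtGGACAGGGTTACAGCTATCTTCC
Igkv6-20, chr6:70335841-70335990: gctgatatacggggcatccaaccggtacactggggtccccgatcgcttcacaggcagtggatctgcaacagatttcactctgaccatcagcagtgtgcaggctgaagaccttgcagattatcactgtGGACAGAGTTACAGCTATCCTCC

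Between 6464089 and 8053017 reads were assigned per library, of which 32210 to 260233 fell on Igkv segments. Human MTCP1 was at 11.1 to 12.3 (log2 normalized value) in Eµ-MTCP1 libraries against 5.849 to 6.19 in the other 6, and human TCL1 at 14.9 to 15.6 in Eµ-TCL1 libraries against 6.04 to 6.96. Wildtype library Z2755 was on lane 1 and the other 8 were on lane 5. Cd79a, a signalling chain of the B-cell receptor, lay at 3051 to 3595 reads per 1000000 assigned reads (CPM) in wildtype, with Eµ-MTCP1 libraries at 3310 to 3851 and Eµ-TCL1 libraries at 2456 to 3392. It passed the test in neither comparison with wildtype, nor did Cd79b, Ms4a1 or Pax5. Summed plasma cell markers spanned 863 to 1329 CPM in wildtype libraries, 301 to 2684 in Eµ-MTCP1 libraries and 103 to 1946 in Eµ-TCL1 libraries. Of the 5 markers 1, Prdm1, was higher in both leukemic groups (log2 fold change 2.11 ± 0.487 and 1.83 ± 0.483 (SE), edgeR adjusted p = 0.0227 and 0.0401). Of all genes tested, 5.49 and 5.07% were higher and 3.99 and 4.13% lower in Eµ-MTCP1 and Eµ-TCL1 against wildtype. T-cell markers (at most 25.4 CPM summed, in B4376, with Cd8a at 0 in wildtype), NK-cell markers (at most 11.8 CPM, all 3 at 0 in Z2641) and myeloid markers gave 0 calls among the 1, 2 and 5 genes tested. Summed myeloid markers were at 771 to 1374 CPM in wildtype, and all Eµ-MTCP1 libraries lay below that range, at 443 to 715 CPM, whereas Eµ-TCL1 libraries spanned 130 to 1285 CPM. Hba-a1, an erythroid globin, ranged from 7.09 to 122 CPM. The part of these cells in the Igkv values was not tested.

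In wildtype mice the kappa repertoire was broad. A read was seen for 98 of the 100 segments in each of the 3 libraries, and 24 segments held over 1% of Igkv reads in each of them. Igkv1-131, a listed segment, had 0 reads in all 9 libraries. Shannon entropy of the shares, which grows with the number of segments in even use, was 5.71, 5.70 and 5.61 bits in Z2754, Z2755 and Z2785 after thinning to 2500 reads. Pairs of wildtype libraries shared 81.2, 78.6 and 74.1% of their usage, taken as the sum over segments of the smaller of the 2 shares.

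The leading segment differed between the wildtype mice. Igkv1-117 led in Z2754 with 9.45% of Igkv reads (95% Wilson interval 9.24 to 9.68%), Igkv6-15 in Z2755 with 7.51% (7.31 to 7.70%) and Igkv3-4 in Z2785 with 12.4% (12.2 to 12.6%). Reads carry no molecular identifiers, so all intervals cover counting error only. Igkv3-4 held 1.98% in Z2754 and 4.08% in Z2755, so its mean of 6.15 ± 5.51% (SD, n = 3) was carried by 1 mouse. The 10 segments with the highest mean share were Igkv3-4, Igkv1-117 (5.64 ± 3.39%), Igkv6-15 (5.54 ± 1.75%), Igkv1-110 (4.03 ± 0.457%), Igkv6-23 (3.95 ± 0.870%), Igkv1-135 (3.14 ± 0.722%), Igkv8-27 (3.07 ± 0.847%), Igkv10-96 (3.01 ± 0.615%), Igkv6-20 (2.71 ± 1.22%) and Igkv5-39 (2.68 ± 1.35%). Together they took 39.9% of Igkv reads, and neighbours in this order did not differ beyond their spread. All 10 were also among the first 10 per length (TPM). Of 31 segments with a mean over 1%, 8 differed over 2-fold between the highest and the lowest wildtype mouse.

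**Figure D1:**
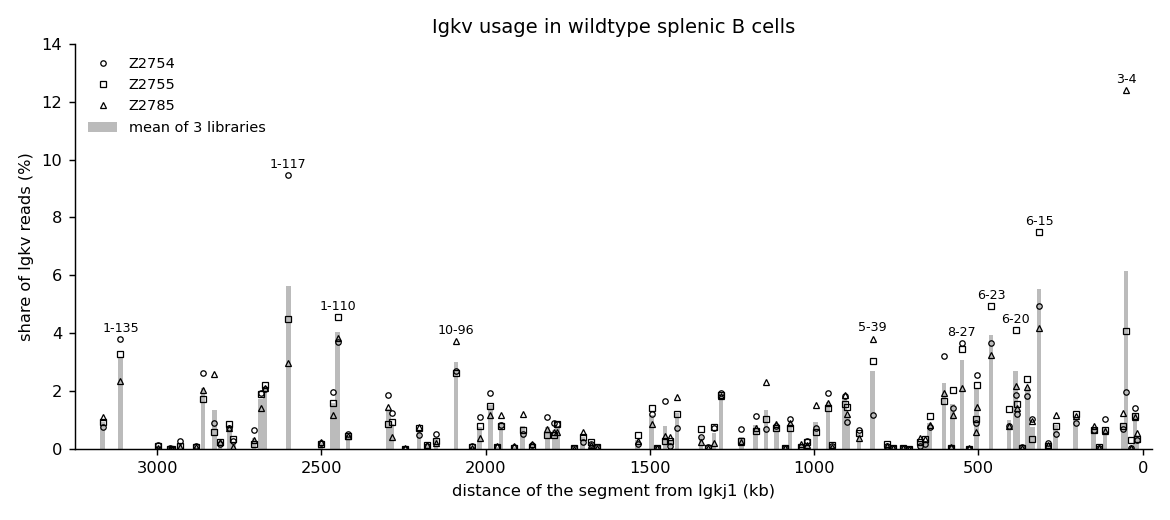
Share of Igkv reads in percent (vertical axis) of each segment in the 3 wildtype libraries against its distance from Igkj1 in kb (horizontal axis); bars are means and symbols are libraries. The 10 named segments stood highest, with Igkv3-4 at 12.4% in Z2785 and 1.98% in Z2754.

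By family, Igkv6 (9 members) took the largest mean share of wildtype reads, 17.1 ± 4.31%. Igkv4 (26 members) took 13.7 ± 0.749%, Igkv1 (10 members) 13.5 ± 4.16%, Igkv8 (10 members) 12.4 ± 1.955% and Igkv3 (9 members) 11.4 ± 5.76%. These 5 families overlapped in their spread. Per length the same families held 17.2, 14.6, 14.7, 11.0 and 9.88%. Each member of Igkv4, the largest family, took 0.529% on average against 1.90% per member of Igkv6.

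Usage also varied with position. Of 4 windows of equal length, the one nearest the J segments (33 members) held 41.3 ± 4.66% of wildtype reads and the most distant one (20 members) 25.2 ± 4.45%, whereas those between them held 20.1 ± 1.52% (25 members) and 13.5 ± 1.41% (22 members). Per member this came to 1.25, 0.802, 0.613 and 1.26% from the nearest window outwards. The proximal segments held 54.9, 64.2 and 64.8% in the 3 mice. Minus-strand segments held 55.9, 60.9 and 54.9%.

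In each leukemic library 1 segment held most Igkv reads. It was Igkv12-89 in Z2551 (97.5%), Igkv4-91 in Z2606 (97.3%), Z2641 (74.1%) and C1594 (93.3%), Igkv10-94 in B4376 (91.9%) and Igkv8-30 in B4437 (68.1%). Igkv4-91 is known as the light chain of phosphatidylcholine-binding B-1 cell receptors with Ighv12-3. Igkv10-94, Igkv4-91 and Igkv12-89, which led 5 of the 6 libraries, lay within 131 kb of each other on the minus strand, in a stretch of 6 members noticed after the values were seen. The same stretch held 4.46, 3.82 and 4.05% of wildtype Igkv reads. Closely related segments may exchange reads: Igkv10-94 is 95.4% identical to Igkv10-96, whereas the segment most like Igkv4-91, Igkv4-79, is 87.2% identical to it.

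After removal of the leader, 2576 reads were left in Z2551, 6921 in Z2606 and 9657 in Z2641, which is 2.47, 2.66 and 25.9% of their Igkv reads. In the Eµ-TCL1 libraries 8169 (B4376), 10264 (B4437) and 6165 (C1594) reads were left, 8.07, 31.9 and 6.70%, and with the standard reference 15.7% was left in B4376. As CPM the residual stood at 399, 906 and 1449 in Eµ-MTCP1 and 1122, 1275 and 824 in Eµ-TCL1, against 8962, 8921 and 12219 CPM of all Igkv reads in wildtype. Every leukemic residual thus lay below every wildtype library, and the 2 leukemic groups overlapped (918 ± 525 and 1074 ± 229 CPM). Fewer B cells outside the clone and less Igkv RNA per such cell cannot be told apart in these bulk samples.

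The residual was less even than the wildtype repertoire. Its entropy at 2500 reads was 5.03 bits in Z2551, 4.43 in Z2606 and 0.720 in Z2641, and 2.30, 2.49 and 2.71 bits in B4376, B4437 and C1594. All 6 values were below the lowest wildtype value of 5.61 bits. The most abundant segment left held 14.1, 27.7 and 92.5% of the residual in Eµ-MTCP1 and 68.0, 51.7 and 53.3% in Eµ-TCL1, against 7.51 to 12.4% for the leader of an intact wildtype library. Overlap with mean wildtype usage was 56.6, 48.2 and 8.54% in Eµ-MTCP1 and 21.4, 16.4 and 22.1% in Eµ-TCL1, while wildtype libraries shared 78.1 to 84.6% with the mean of the other 2. In entropy, in the second segment and in this likeness no Eµ-MTCP1 value fell inside the Eµ-TCL1 range. Z2551 and Z2606 lay on the wildtype side of it and Z2641 on the other side, so the 2 leukemic groups were not separated. With the second segment removed as well, entropy at 700 reads was 5.12, 4.88 and 4.70 bits in Eµ-MTCP1 and 4.36, 3.03 and 3.63 bits in Eµ-TCL1. The first segment left held 14.8 to 20.4% and 30.9 to 58.2%. The groups were separated in these 2 measures (3 mice each, not tested). In likeness they were not, with Z2641 at 43.2% and B4376 at 44.8%. The first segment left in B4376 and B4437 was Igkv6-29 (34.3 and 58.2%), which lies beside Igkv8-30, removed from both. Neither measure was computed without Igkv6-29.

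**Figure D2:**
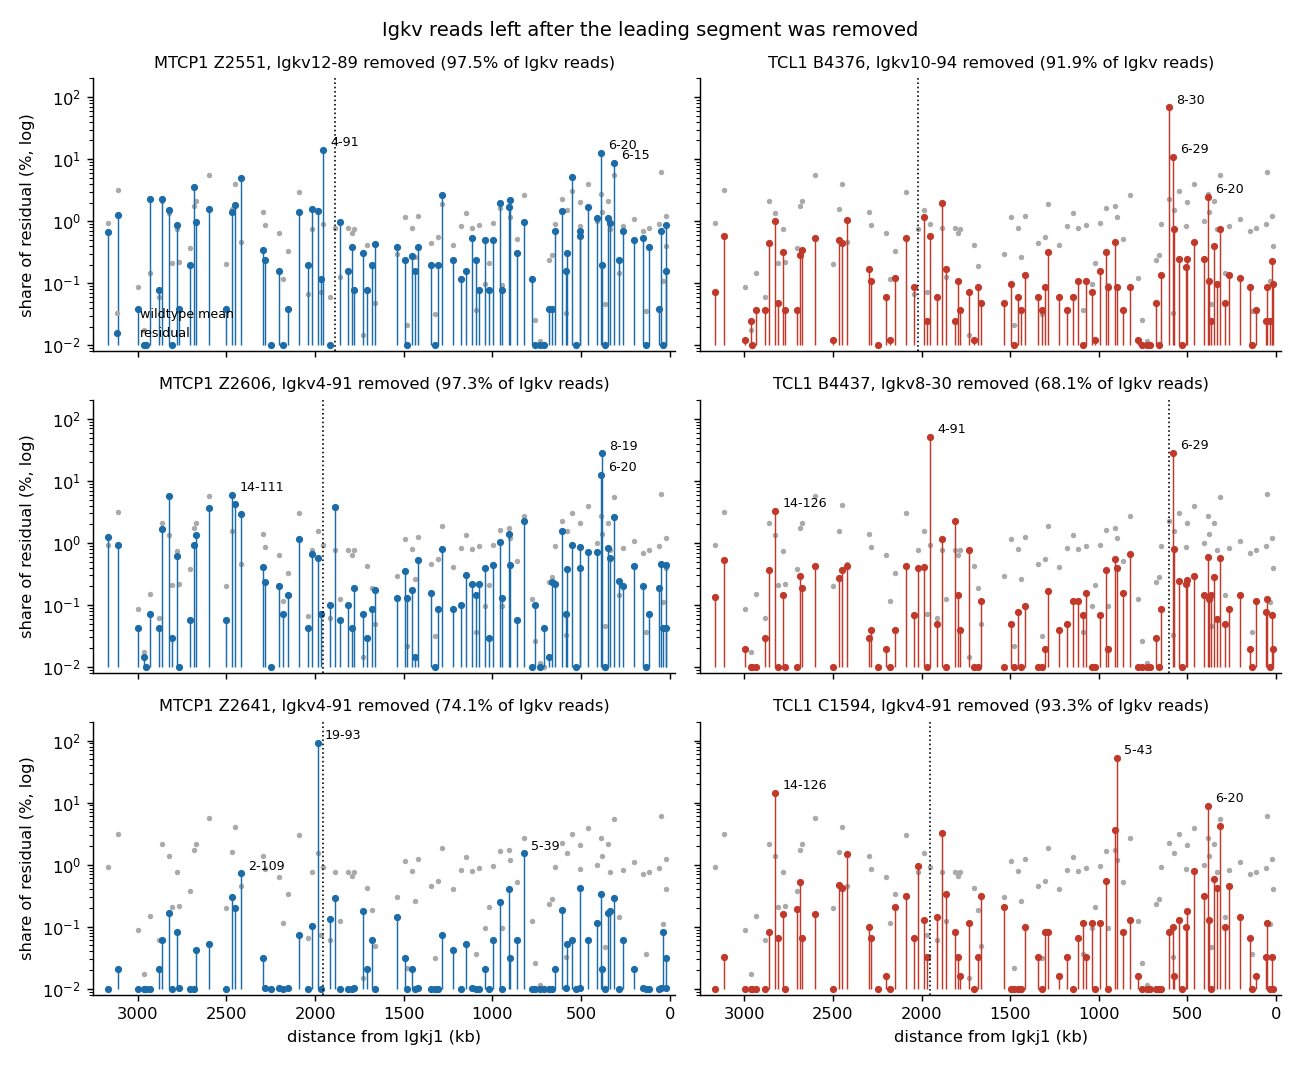
Share of the residual reads in percent on a log axis (values under 0.01 drawn at 0.01) against distance from Igkj1 in kb, 1 panel per leukemic library; grey points are the mean wildtype shares and the dotted line marks the removed segment. Among the segments above the grey points were Igkv19-93 in Z2641 (92.5%) and Igkv8-30 in B4376 (68.0%).

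The residual was led by a different segment in each library but 2, in which it was Igkv4-91. In Z2641, Igkv19-93 held 8932 reads, 92.5% of the residual (95% Wilson interval 91.9 to 93.0%) and 24.0% of all Igkv reads. This segment lies 31.8 kb from the leader Igkv4-91 and held 1.15 to 1.95% in wildtype. In B4376 Igkv8-30 held 5559 reads (67.0 to 69.1%), and in C1594 Igkv5-43 held 3287 (52.1 to 54.6%). In Z2606 Igkv8-19 held 1919 reads (26.7 to 28.8%). Igkv4-91 led with 5302 reads in B4437 (50.7 to 52.6%) and 364 in Z2551 (12.8 to 15.5%). Igkv5-43 is 98.4% identical to Igkv5-45 and Igkv8-19 is 97.6% identical to Igkv8-28, so their reads may be shared with those relatives, which held 0 reads and 26 reads in the same libraries.

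With the standard Salmon reference the residual of B4376 was led by Igkv10-96 (7903 reads, 48.5%) and not by Igkv8-30 (34.1%). On the reference with human sequences Igkv10-96 had 44 reads in that library. With this exception and Igkv6-20 in place of Igkv4-91 in Z2551 with the deposited count table (15.3 against 13.1%), the leading residual segment was the same in each library with both of these alternatives and per length.

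Segments that lead a clone in 1 mouse were also looked for in the residual of the others. Igkv4-91 had 48 reads in B4376, a level of 6.60 CPM against 68.8 to 144 CPM in wildtype. Its 658 CPM in B4437 lay above the wildtype range and its 56.3 CPM in Z2551 below. Igkv8-30 was at 764 CPM in B4376, above the wildtype range of 148 to 287 CPM, and at 0.669 to 14.3 CPM in the other 4 residual libraries. Igkv12-89 was at 4.2 to 34.4 CPM where it did not lead, against 44.3 to 145 in wildtype, and Igkv10-94 at 1.5 to 7.89 CPM against 43.8 to 99.4.

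Reads of the heavy chain partners were read beside these segments, a choice made after the values were seen. Ighv12-3 held 95.8% of Ighv reads in Z2606 and 98.1% in C1594, where Igkv4-91 led. In B4437, where Igkv4-91 led the residual, Ighv12-3 was the second segment with 9.22% (95% Wilson interval 8.77 to 9.70%). In Z2551, where Igkv4-91 led the residual too, Ighv12-3 had 73 of 28051 Ighv reads (0.260%). In Z2641, where Igkv4-91 led all Igkv reads, it had 68 of 26200 (0.260%). Both lay within the wildtype range of 0.108 to 0.482%. Among the Ighv reads left after the leading Ighv segment was set aside, Ighv12-3 held 59.4% in B4437, 12.9% in Z2551, 3.01% in Z2641 and 0.881% in B4376, while the wildtype range is of all Ighv reads. Of all Ighv reads in B4376 it had 11 of 38148 (0.0288%, 1.51 CPM), below the wildtype libraries (3.44 to 21.1 CPM).

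Igkv14-126, the light chain known from phosphatidylcholine-binding receptors with Ighv11-2, held at least 2% of the residual in 3 libraries. It took 14.4% in C1594 (890 reads), 5.61% in Z2606 (388 reads) and 3.28% in B4437 (337 reads), but 0.166 to 1.51% in the other 3. In wildtype it held 0.886, 0.596 and 2.59% of Igkv reads. Ighv11-2 held 0.931% of Ighv reads in C1594, 0.243% in Z2606 and 0.635% in B4437, against 0.613 to 2.15% in wildtype. Among the Ighv reads left without the leading Ighv segment it held 49.7% in C1594 (316 of 636 reads), 5.83% in Z2606 and 4.09% in B4437. In the other 3 libraries it held 2.84% (Z2551), 2.24% (B4376) and 0.177% (Z2641). All but Z2641 were above the wildtype shares, which are of all Ighv reads, so being above wildtype did not set apart the 3 libraries high in Igkv14-126. As CPM, Igkv14-126 stayed within the wildtype range of 53.2 to 316 only in C1594 (119 CPM), and it passed the test in neither comparison with wildtype (adjusted p = 0.177 and 0.515).

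Igkv6-29 stood high only where Igkv8-30 did. It had 11, 25 and 37 reads in wildtype and 1 to 6 reads in 4 of the leukemic libraries, but 895 reads in B4376 and 2886 in B4437. These made 11.0 and 28.1% of the residual there. Igkv6-29 is the next segment beside Igkv8-30, 20.8 kb away on the same strand and nearer the J segments. Per 100 reads of Igkv8-30 there were 16.1 and 13.2 reads of Igkv6-29 in these 2 libraries, against 0.509, 2.15 and 2.43 in wildtype. In the other 4 leukemic libraries the ratio rested on 1 to 6 reads of Igkv6-29 and 5 to 109 of Igkv8-30 and was not read.

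The printed sequences bear on how such reads can be placed. Igkv6-29 differs from Igkv6-20 at 5 of 375 aligned bases, and the pair shares 255 stretches of 31 bases. Igkv6-20 had only 204 reads in B4376 and 61 in B4437, fewer than Igkv6-29. With Igkv8-30 it is 78.8% identical and shares 6 such stretches. The standard reference gave 18.03 and 14.6 reads per 100, and the deposited count table, which put 90 to 306 reads on Igkv6-29 in wildtype, gave 28.9 and 19.9 against 5.56 to 28.1 in wildtype.

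**Figure D3:**
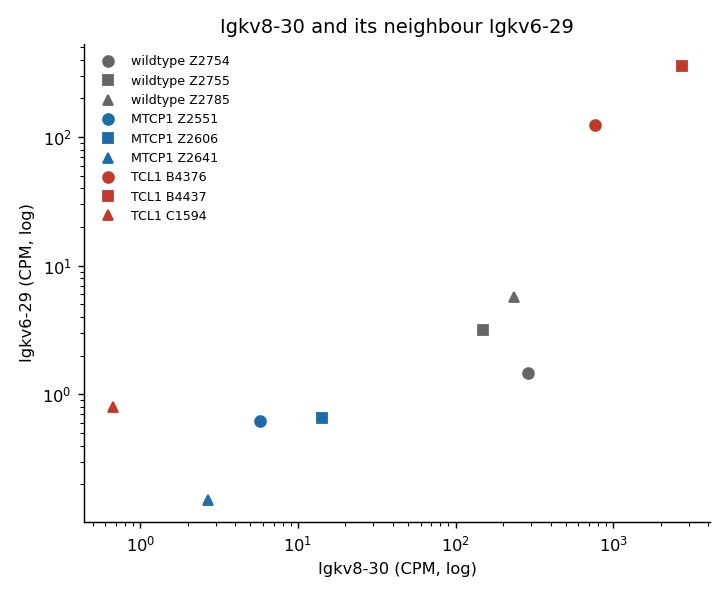
CPM of Igkv6-29 against CPM of its neighbour Igkv8-30 in the 9 libraries, both on log axes. Eµ-TCL1 libraries B4376 and B4437 lay at 123 and 358 CPM of Igkv6-29, above the wildtype libraries at 1.46 to 5.69 CPM.

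Most other segments stood far below their wildtype level. A read was seen for 84, 90 and 60 of the 99 remaining segments in Z2551, Z2606 and Z2641 and for 89, 80 and 69 in B4376, B4437 and C1594. Over all 98 remaining segments with a wildtype read, including those at 0, the median level was 1.94, 3.79 and 0.222% of the wildtype mean CPM in Z2551, Z2606 and Z2641 and 1.74, 1.25 and 0.596% in B4376, B4437 and C1594. Between 0 and 3 segments per library stood above their wildtype mean. As the base for comparing segments, medians were also taken over those with at least 50 reads in each wildtype library (75 per leukemic library without its leader), which were 2.05, 3.34 and 0.322% of the wildtype mean CPM in Z2551, Z2606 and Z2641 and 1.60, 1.26 and 0.663% in B4376, B4437 and C1594. These segments were chosen by their wildtype reads, so the second set of medians is a description only. The median of Z2641 rested on 3 reads, and those of B4376, B4437 and C1594 rested on few reads as well. Between 2 and 9 segments per library exceeded 10 times that library's median. The rank order of the segments still resembled wildtype: Spearman's rho across these segments with mean wildtype CPM was 0.742, 0.809 and 0.537 in Eµ-MTCP1 and 0.725, 0.751 and 0.514 in Eµ-TCL1, against 0.842 to 0.895 for a wildtype library with the other 2. These correlations run over segments of 1 library, which share its depth and are not independent replicates.

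**Figure D4:**
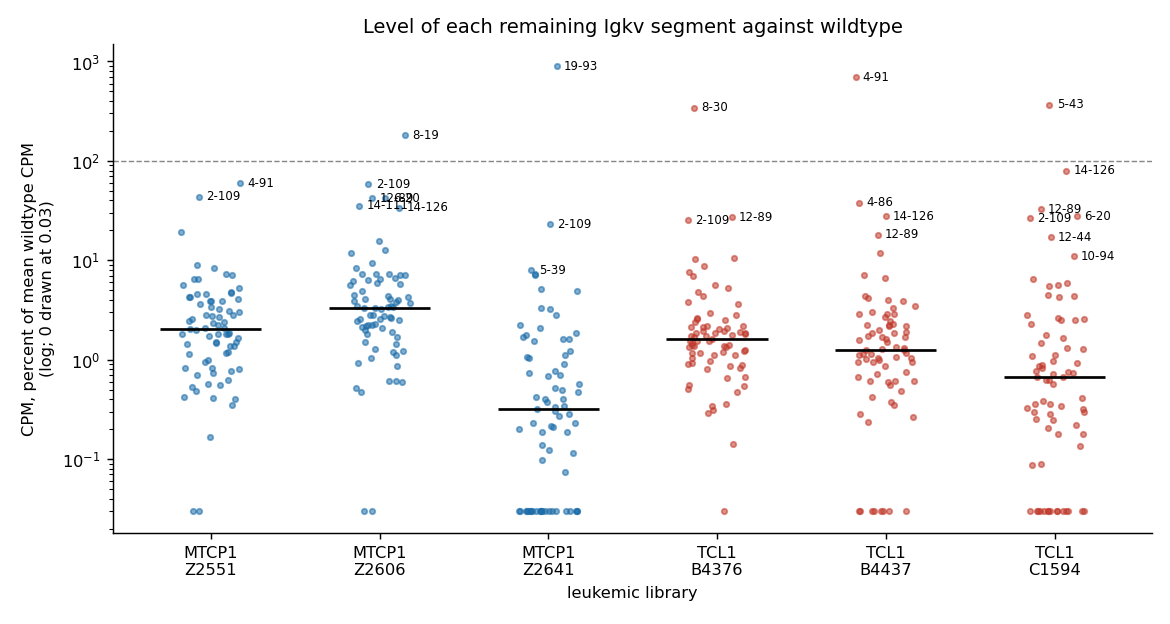
CPM of each remaining segment with at least 50 reads in every wildtype library, as percent of its mean wildtype CPM on a log axis (0 drawn at 0.03) in the 6 leukemic libraries; points are segments, black lines the medians and the dashed line wildtype level. Medians lay between 0.322 and 3.34%, and labels mark segments with at least 50 reads over 10 times the median.

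Some segments kept a higher level than the rest in many mice. Igkv2-109, named after its values were seen, exceeded 4 times the library's median in 6 of 6 libraries. It was at 19.96, 26.6 and 10.5 CPM in Eµ-MTCP1 and 11.5, 5.46 and 12.2 CPM in Eµ-TCL1, against 38.1 to 55.1 CPM in wildtype. Igkv6-20 exceeded 4 times the median in 5 of 6 libraries, with 50.7, 113 and 4.95 CPM in Eµ-MTCP1 and 28.0, 7.57 and 73.8 CPM in Eµ-TCL1 against 166 to 366 in wildtype. Igkv14-126 did so in 5 of 6, and Igkv12-89 in all 5 libraries it did not lead. Igkv6-15 exceeded 4 times the median in only 1 of 6. It held at least 2% of the residual in 3 libraries, with 8.81% in Z2551, 2.64% in Z2606 and 4.25% in C1594, against a wildtype mean of 5.54%. Igkv5-39, next after Igkv19-93 in Z2641, held 1.53% there (148 reads).

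By family, the residual shifted with its leading segments. Igkv19 took 92.5% in Z2641, Igkv8 69.8% in B4376, Igkv4 55.8% in B4437 and Igkv5 53.6% in C1594. Other members of the removed leader's own family held 0.797 to 4.49% of the residual where Igkv4-91 was removed, against 12.2 to 13.5% for the same 25 segments in wildtype. They held 4.11% in Z2551 (5 other Igkv12 segments, 4.01 to 5.02% in wildtype), 0.624% in B4376 (2 Igkv10 segments, 2.71 to 3.76%, of which Igkv10-96 alone held 48.5% with the standard reference) and 1.79% in B4437 (9 Igkv8 segments, 8.45 to 11.5%). With the second segment taken out as well, Igkv3 held 0.869 to 3.71% in the 6 libraries against 6.99 to 17.9% in wildtype, and Igkv4, Igkv9, Igkv11, Igkv13, Igkv15 and Igkv16 were also below every wildtype library in all 6. Igkv14 was then above the wildtype range of 2.99 to 4.59% in all 6, at 5.06 to 32.0%. Shares of 1 library add up to 100%, so a high family lowers the others.

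**Figure D5:**
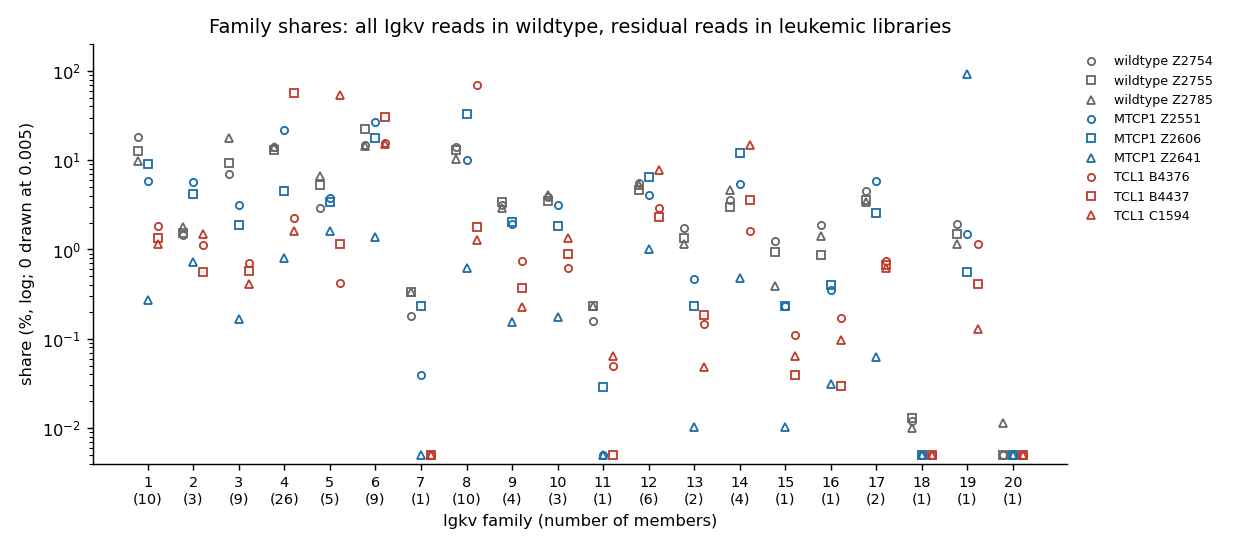
Share in percent (log axis, 0 drawn at 0.005) of each Igkv family: of all Igkv reads in wildtype (grey) and of residual reads in Eµ-MTCP1 (blue) and Eµ-TCL1 (red) libraries; symbols are mice. Igkv3 lay below all wildtype points in all 6 leukemic libraries, and Igkv4, Igkv5, Igkv8 and Igkv19 each reached over 50% in 1 of them.

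Position was as uneven. Proximal segments held 54.1, 62.4 and 4.90% of the residual in Eµ-MTCP1 and 88.7, 35.9 and 75.7% in Eµ-TCL1, on both sides of the wildtype range. With the standard reference B4376 was at 45.8%, below the wildtype range of 53.9 to 63.8% on that reference. Minus-strand segments held 71.4, 66.8 and 97.6% and 92.6, 92.2 and 80.5%, above the highest wildtype value of 60.9% in 6 of 6 libraries. Without the second segment as well they held 54.1 to 83.9%, and 4 of 6 remained above wildtype. The 2 segments on each side of the removed one held 92.9% of the residual in Z2641 (Igkv19-93), 28.99% in B4437 (Igkv6-29) and 15.3% in Z2551 (Igkv4-91), all above wildtype. In Z2606 and C1594 they held 4.54 and 3.55%, above the 2.27 to 2.57% of the same segments in wildtype, and in B4376 they held 1.81%, below the 4.29 to 5.004% in wildtype. With the standard reference the B4376 value turned above wildtype, since Igkv10-96 is one of these neighbours.

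Each segment was then tested between groups by edgeR's quasi-likelihood method, adjusted over all 11165 genes that passed the expression filter. Of the members, 93 passed it and 7 did not, the latter with 0 to 245 reads over all libraries. In Eµ-MTCP1, 72 of the 93 fell and 0 rose at an adjusted p under 0.05, where 3.99% of all genes tested fell and 5.49% rose. In Eµ-TCL1, 73 fell, where 4.13% of all genes fell, and 1 rose, where 5.07% of all genes rose. Both comparisons share the wildtype libraries, and 69 segments fell in both, 95.8% of those in Eµ-MTCP1 and 94.5% of those in Eµ-TCL1. The same count over all genes was not taken, so these shares are a description only. The median log2 fold change of the 93 was -5.22 in Eµ-MTCP1 and -5.95 in Eµ-TCL1, against -0.02 and -0.01 over all genes tested. With the 3 and 4 segments at 0 in the whole leukemic group placed at their bound it was -5.01 and -5.70. Without overlap in CPM, 87 segments lay below wildtype in Eµ-MTCP1 and 85 in Eµ-TCL1, where 24.2 and 20.5% of all genes did. In all 6 leukemic libraries 81 lay below every wildtype library (13.8% of all genes). Above wildtype without overlap there were 0 segments in either group or in all 6, where 8.61, 12.0 and 5.92% of all genes were.

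Among the segments most used by wildtype mice the decreases were large. Igkv3-4 had 1335, 2859 and 9849 reads in wildtype, 18, 32 and 1 in Eµ-MTCP1 and 7, 13 and 7 in Eµ-TCL1. Its log2 fold changes were -7.97 ± 1.05 (SE, edgeR adjusted p = 0.00135) and -9.08 ± 1.12 (adjusted p = 0.000836). Igkv6-23 had log2 fold changes of -6.13 and -6.10 (edgeR adjusted p = 0.000260 and 0.000188), with wildtype at 329 to 440 CPM and the leukemic libraries at 0.900 to 6.65. Igkv1-117, Igkv1-110, Igkv1-135, Igkv8-27, Igkv10-96, Igkv5-39 and Igkv6-15 fell in both comparisons too, by 3.94 to 6.86 on the log2 scale. For Igkv10-96 in Eµ-TCL1 the direction turned with the standard reference (0.33), which placed 7903 reads on it in B4376. Igkv6-20 did not pass the test (log2 fold change -1.999 and -2.69, edgeR adjusted p = 0.213 and 0.111), although all 6 leukemic libraries lay below wildtype.

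Other segments with the steepest decreases held 0.204 to 0.829% of wildtype Igkv reads on average. In Eµ-MTCP1 they were Igkv8-34, Igkv11-125 and Igkv9-123, each with 2 reads in the whole group against 457 to 524 in wildtype, and Igkv4-57-1 with 10 against 1780. From reads summed over the group Igkv8-34 was 249-fold lower, a ratio that rests on 2 reads (95% counting interval 68.5 to 2059, for counting error over the group only). In Eµ-TCL1, Igkv7-33 had 0 reads against 624 in wildtype, at least 73.6-fold lower with 3 reads per library as the floor, a stricter bound than a counting interval over the group. Igkv4-80, Igkv2-112 and Igkv13-84 had 2, 1 and 8 reads against 927, 446 and 1634.

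The segment that rose in Eµ-TCL1 was Igkv6-29 (log2 fold change 5.65 ± 1.39, edgeR adjusted p = 0.0306). It rested on B4376 and B4437, since C1594 at 0.802 CPM lay below the wildtype range. The call was lost with the deposited count table (3.14), without any 1 wildtype library (5.28 to 6.27) and without B4437 (4.28). The leading segments, which differed between mice, did not pass the edgeR test with all libraries. Igkv4-91 had a log2 fold change of 7.25 ± 2.46 in Eµ-MTCP1 (edgeR adjusted p = 0.0988) and 5.57 ± 2.28 in Eµ-TCL1 (adjusted p = 0.161). Those of Igkv12-89 in Eµ-MTCP1 and Igkv10-94 in Eµ-TCL1 were 6.17 ± 2.20 and 6.03 ± 2.26 (adjusted p = 0.115 and 0.128). The DESeq2 Wald test called Igkv4-91 higher in both comparisons (log2 fold change 7.24 and 5.55). Without Z2641 edgeR called Igkv12-89 higher in Eµ-MTCP1 (6.73), and without C1594 it called Igkv8-30 higher in Eµ-TCL1 (3.06). The library left out had the fewest reads of that segment in its group (28 and 5). These segments are named because they led these same libraries, so their calls are a description only.

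Eµ-TCL1 and Eµ-MTCP1 libraries were compared directly in the same fit. By edgeR 0 of 93 segments were called in either direction, where 0.0179% of all genes were lower and 0.0269% higher. At an unadjusted p under 0.05 there were 19, where 6.42% of all genes were. The DESeq2 Wald test called 2, Igkv8-30 and Igkv6-29, both higher in Eµ-TCL1 (log2 fold change 7.13 and 8.28), where 0.358% of all genes were higher. The same 2 were called by edgeR without C1594 (7.71 and 8.80), which had only 5 and 6 reads of them.

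Other genes of the light chain loci and of recombination were read from the same fits. Of 19 listed genes 9 passed the expression filter, and 2 were lower in each comparison with wildtype, where 3.99 and 4.13% of all genes were. Iglv2, a lambda variable segment, fell in both (log2 fold change -4.87 ± 0.986 and -6.94 ± 1.11, edgeR adjusted p = 0.0124 and 0.00355), from 287 to 478 CPM in wildtype to at most 30.2 CPM. Vpreb3, which assists light chain assembly in the B lineage, fell in Eµ-MTCP1 (-2.93 ± 0.740, adjusted p = 0.0335), a call lost without any 1 wildtype library, without Z2641 or without Z2551 while the log2 fold change stayed at -2.59 to -3.15. Iglv3 fell in Eµ-TCL1 (-2.11 ± 0.495, adjusted p = 0.0242), a call lost with the deposited count table (-1.45) and without any 1 wildtype or Eµ-TCL1 library (-1.98 to -2.22).

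Kappa and lambda constant genes did not pass the test. Igkc was at 12008, 12290 and 19400 CPM in wildtype, 21821, 50131 and 9445 in Eµ-MTCP1 and 24764, 5625 and 18843 in Eµ-TCL1. Igkv reads per 100 Igkc reads were 63.0 to 74.6, 59.2 to 74.1 and 56.2 to 71.1 in the 3 groups, which overlapped. Iglv1, Iglc1, Iglc2, Iglc3 and Vpreb1 passed the test in neither comparison with wildtype. Rag1 and Rag2, the recombinase genes, had 0 reads in all 9 libraries. Igkj1 to Igkj5 had 0 reads too, although each joined kappa gene holds a J segment. Igkj1 is very short (positions 70722562 to 70722599), and these zeros were not read as absent J use. Vpreb2, Igll1 and Dntt did not reach the filter, and the highest of them was Igll1 at 1.80 CPM in Z2641.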

How the data were processed

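Splenic B-cell RNA of 9 mice was sequenced as 1 library per mouse, and nothing in the labels ties mice to litters or days, so p-values measure the spread between mice of a group. The authors estimated counts per transcript with Salmon 1.0.0, on a standard mouse reference and on one with human sequences added (build GRCm38.p4), and deposited these estimated counts with TPM (per length) values. The authors also deposited whole gene counts, with HISAT2 2.0.6 and featureCounts named in the processing notes, and log2 normalized values from DESeq2, which were used here for the member list and the transgenes.

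Estimated counts on the reference with human sequences were summed per gene and rounded. CPM divides by all assigned reads of a library. Groups were compared in 1 edgeR 4.0.16 fit over all 9 libraries (R 4.3.3), with filterByExpr, TMM normalization, the quasi-likelihood F test and Benjamini-Hochberg adjustment over all genes tested, and the fit was tested on simulated data. Entropy is the mean of 200 draws of 2500 reads. Wilson intervals are at 95%, and a count of 0 was read as up to 3 reads. Sequences and coordinates are from GENCODE M21 (GRCm38), and all 135 transcripts had the length of the standard reference there. Only 86 of them had the same length in the reference with human sequences, on which the main counts rest. Identities and shared stretches were taken from M21 and not from that reference.

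Named segments are the 3 most abundant of each leukemic library, the 10 most used in wildtype, those with at least 2% of the residual in 3 or more libraries, the 5 largest changes per comparison with wildtype among called segments with a mean of at least 5 CPM and no overlap, and any called between the leukemic groups. Members, lists and tests were chosen with earlier results of these data known. Alternatives were DESeq2 1.42.0 (Wald test, size factors), no filter, the standard reference, the gene counts, TPM, other removals and leaving out each library. The authors' second log2 table and a second gene count table were not used. Some marker genes are not reported here.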

Additional observations from a re-analysis of the deposited data

How the results depend on the processing

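No paired analysis was made, since each library is from a different mouse and the labels tie no mouse to one of another group. Leaving out 1 library at a time gave 61 to 74 called segments in Eµ-MTCP1, 66 to 80 in Eµ-TCL1 and 0 to 2 between the leukemic groups, where DESeq2 called 2. Against wildtype, the share of all genes called was then 4.59 to 8.98% for Eµ-MTCP1 mice (9.48% with all libraries) and 4.52 to 10.8% for Eµ-TCL1 mice (9.20%). Between the leukemic groups it was 0.0436 to 0.0699% (0.0448% with all libraries), and 0.654% with DESeq2. Of the fold changes of named genes under all alternatives, 1439 kept their direction and side of the threshold, 25 passed it newly, 26 no longer did and 4 changed sign. Those 4 were Igkv10-96 in Eµ-TCL1 with the standard reference (0.33), Igkv19-93 in Eµ-MTCP1 (-4.58 without Z2641, up to 2.42 with another library left out), Igkv5-43 in Eµ-TCL1 (-5.20 without C1594, up to 1.07) and Igkv10-94 in Eµ-TCL1 (-3.30 without B4376, up to 6.62). In the last 3 the library left out was the one in which the segment was high.

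With the second segment removed as well, residual CPM was 368 in Eµ-MTCP1 and 453 in Eµ-TCL1. Entropy was then taken at 700 reads, which gave 5.604 bits in the intact wildtype libraries, 4.90 in Eµ-MTCP1 and 3.67 in Eµ-TCL1. In Eµ-TCL1 the first segment left held 41.1%, likeness to wildtype was 34.7% and the minus-strand share 73.0%. In Eµ-MTCP1 the first segment left then held 17.5%, against 44.8%, and in Z2641 it held 20.4%, with an entropy of 4.70 bits and a likeness of 43.2%. With the deposited gene counts, CPM was 5777 in wildtype and 751 in Eµ-TCL1, entropy in Eµ-TCL1 was 2.93 bits and the first segment left held 43.7%. With the standard reference CPM was 6206 in wildtype, 541 in Eµ-MTCP1 and 860 in Eµ-TCL1. CPM divides by assigned reads, which were 11438681 to 14070588 per library there and 6464089 to 8053017 on the reference with human sequences. Removing the leader from wildtype too gave 5.78 bits and a first segment of 5.18%. Likeness among wildtype libraries was 74.1 to 81.2% with 1 library left out. Causes of these shifts were not tested. With 3 mice per group and different leaders in each, differences between the leukemic groups were weakly constrained, and a segment with 0 reads in a library may have had up to 3. The minus-strand share, the median level against wildtype and the ratio of Igkv6-29 to Igkv8-30 were chosen after seeing the data, as were their alternatives.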
